A study of Mus musculus with 12 samples.

Results

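The enzymes of mitochondrial fatty acid oxidation described here are 10 genes: Acsl1, Cpt1a, Cpt1b, Cpt2, Acadvl, Acadl, Acadm, Hadha, Hadhb and Etfdh. They were taken by name, as the rows that carry these symbols in each of 12 mouse count tables. The list of names was drawn up with earlier results of these data known. The tables list 21493 genes, all 10 enzymes among them, and all 10 passed the filter on low counts and belong to the 13158 genes tested. Their lowest count in any library was 265 reads and their highest 17467.

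Adult cardiomyocytes came from 3-month-old mice that had desmin (Des+/+) or were without it (Des-/-). Mice of each genotype either had swum as a mild exercise stress (swim) or had not (non-swim). Each of these 4 groups had 3 polyA RNA libraries, and per the methods of the study each library held cells of several mice. The cells were freed from the heart by perfusion with trypsin and collagenase and harvested without delay, with no sorting step named, so other heart cells could come along. Des, the targeted gene, lay at 973 to 3647 CPM (reads of a gene scaled to a common library size, here by edgeR's TMM factors) in the 6 Des+/+ libraries and at 50.3 to 101 CPM in the 6 Des-/- libraries, so every library fitted its genotype label. The libraries held 4320819 to 12072443 reads assigned to genes. Nothing states that mice were separate litters or days, so the p-values below measure the spread between these pooled libraries.

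The heart takes most of its ATP from long-chain fatty acids. A fatty acid is first activated to an acyl-CoA, handed to carnitine so that it can enter the mitochondrial matrix, and there shortened step by step to acetyl-CoA. The opening oxidation of each round removes electrons that pass through electron transfer flavoprotein, and its dehydrogenase, to the respiratory chain. In mouse heart the genes of this pathway are classically driven by nuclear receptors of the PPAR and ERR families with the coactivator PGC-1alpha, many of whose sites hold the core AGGTCA.

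Hadha and Hadhb encode the alpha and beta subunits of one enzyme complex, the mitochondrial trifunctional protein, and lie head to head on chromosome 5 (GRCm38, GENCODE M21). Hadha runs from 30118304 to 30155162 on the minus strand and Hadhb from 30155248 to 30184593 on the plus strand. The 85 bases between their outermost annotated exons, at chr5:30155163-30155247, are shown on the plus strand because both genes are transcribed away from this stretch. Capitals mark the 2 GC boxes (GGGCGG), and 69.4% of the bases are G or C.
Hadha-Hadhb stretch: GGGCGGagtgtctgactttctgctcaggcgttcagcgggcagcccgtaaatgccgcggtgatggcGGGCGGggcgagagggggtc

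RefSeq promoter windows (GRCm38.p6, 250 bases before to 50 bases after a start) matched 9 of the 10 genes, and Acsl1 had 2 windows, which makes 10 windows. Read on both strands, AGGTCA was in 3 of the 10 windows, those of Acadm, Acadvl and Cpt1a, and in 16.3% of all 32851 promoter windows. The longer ERR core AAGGTCA, which contains AGGTCA, was in the Acadm window only among the 10 and in 4.72% of all windows. The PPAR type of repeat, AGGTCANAGGTCA, was in none of the 10 and in 0.0396% of all. A TATA box (TATAAA) was in none of the 10 and in 13.6% of all, while GGGCGG was in 7 of the 10 and in 35.7% of all. The windows with AGGTCA are shown up to the first annotated exon base or the start, each 5′ to 3′ on the strand of its gene, with AGGTCA or its reverse complement TGACCT in capitals. They belong to Acadm and Acadvl, which were called lower in Des-/- without swimming as described below, and to Cpt1a, which was not called in any comparison by TMM scaling.
Acadm, minus strand, chr3:153944644-153944893: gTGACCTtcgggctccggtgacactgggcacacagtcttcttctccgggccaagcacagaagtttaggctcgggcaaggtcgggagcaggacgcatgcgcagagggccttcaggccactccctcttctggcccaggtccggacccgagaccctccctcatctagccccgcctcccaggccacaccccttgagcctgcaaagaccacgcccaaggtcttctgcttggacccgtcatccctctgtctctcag
Acadvl, minus strand, chr11:70015429-70015678: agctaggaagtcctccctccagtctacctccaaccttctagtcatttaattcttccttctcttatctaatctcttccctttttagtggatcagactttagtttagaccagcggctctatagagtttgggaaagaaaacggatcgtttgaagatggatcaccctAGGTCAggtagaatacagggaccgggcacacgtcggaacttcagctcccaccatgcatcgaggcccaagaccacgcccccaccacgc
Cpt1a, plus strand, chr19:3323051-3323284: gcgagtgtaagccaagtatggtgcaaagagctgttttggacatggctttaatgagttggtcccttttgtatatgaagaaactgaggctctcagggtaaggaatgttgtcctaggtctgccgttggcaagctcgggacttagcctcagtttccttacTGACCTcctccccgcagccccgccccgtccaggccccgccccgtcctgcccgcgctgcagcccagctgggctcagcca

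The comparison of Des-/- with Des+/+ hearts asks how loss of desmin goes with these transcripts, at rest and after swimming. Without swimming, 9 of the 10 were lower in the Des-/- libraries at an adjusted p under 0.05, to between 16.7% and 22.2% of the Des+/+ level, and only Cpt1a was not called. The test was edgeR's quasi-likelihood test with Benjamini-Hochberg adjustment over all genes tested, and 31.7% of all genes were called in this comparison, 18% as lower. The median log2 change of the 10 was -2.34, against 0.04 for all genes tested. At an unadjusted p under 0.05 there were also 9, against 43.6% of all genes, and the filter of the study (unadjusted p at most 0.05, absolute log2 change at least 0.6, mean count at least 20) passed 9, against 31.9%. The libraries of the 2 groups did not overlap for these 9 genes, as was so for 24.9% of all genes in this direction. These falls are relative to the whole RNA of a library: with libraries scaled instead to 12 cardiomyocyte marker genes, none of the 9 was called and Cpt2, Acadvl and Hadha changed sign, as described further below. Leaving out replicate 2 of Des-/- non-swim moved 3 of the 9 by over 1.5 times, to log2 changes of -3.41 for Acsl1, -3.18 for Cpt1b and -3.02 for Etfdh, and over all left-out libraries the 9 ranged from -3.41 to -1.83.

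After swimming all 10 were still on the lower side in Des-/- and 2 were called lower, Acadl and Acadm, where 10.6% of all genes were called and 5.6% as lower. The median log2 change was -1.09, against 0.02 for all genes. In 8 of the 10, all but Cpt1a and Cpt1b, the libraries of the 2 genotypes did not overlap, which held for 18.6% of all genes in this direction. The same 8 genes had an unadjusted p under 0.05, as had 30.3% of all genes, and passed the filter of the study, as did 17.5%. The 2 calls rested on few libraries: none was left without replicate 1 or 3 of Des+/+ swim or without replicate 1, 2 or 3 of Des-/- swim. In those fits 0.562% to 5.22% of all genes were called. Without replicate 3 of Des+/+ non-swim 1 was left, with 7.17% of all genes called. There were 6 calls without replicate 2 or replicate 3 of Des-/- non-swim (11.3% and 16.3% of all genes) and 6 with DESeq2 (17.7%). A fit of the 6 swim libraries alone gave 7 (7.88%), the replicate number as a block 5 (9.86%), and scaling to cardiomyocyte markers 0 (1.76%).

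**Figure D1:**
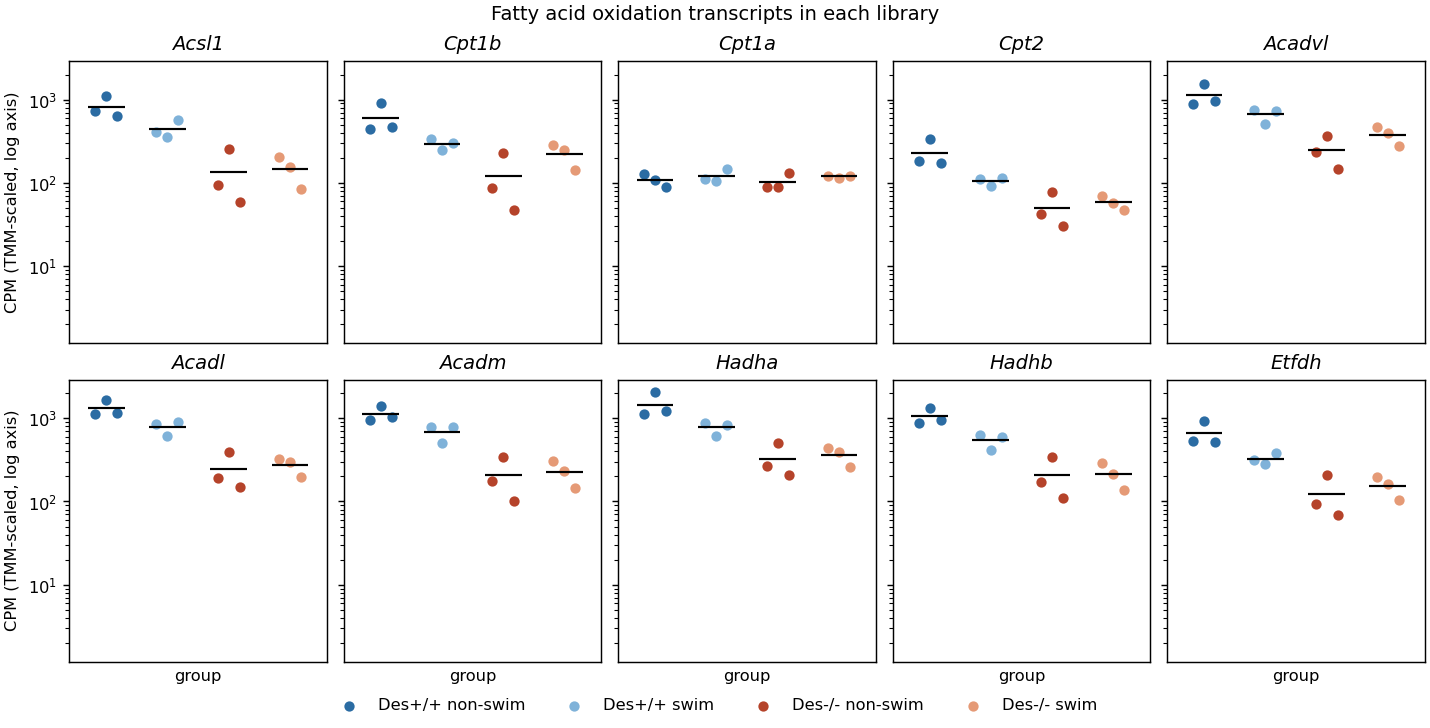
CPM of each transcript in each of the 12 libraries, scaled by TMM and drawn on a log axis. Points are libraries, black bars are the arithmetic means of 3 libraries, and colours mark the 4 groups. In 9 of the 10 panels the Des-/- non-swim libraries lie below all Des+/+ non-swim libraries, while the Cpt1a points of the 4 groups overlap. On a scale relative to cardiomyocyte markers these differences shrink, and those of Cpt2, Acadvl and Hadha change sign.

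Acsl1 encodes the main long-chain acyl-CoA synthetase of heart, which activates fatty acids at the start of the pathway. Its level was 723, 1095 and 639.8 CPM in the Des+/+ non-swim libraries and 94.8, 257 and 59.4 CPM in Des-/- non-swim. Swimming groups had 412, 354 and 564 CPM in Des+/+ and 205, 155 and 85.4 CPM in Des-/-. The genotypes were thus apart in every library under both conditions, and the Des-/- groups overlapped each other. Without swimming the log2 change was -2.58 (SE 0.51, adjusted p = 0.00406), and after swimming it was -1.58 (SE 0.50, adjusted p = 0.0632), which did not pass.

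Cpt1b is the muscle form of carnitine palmitoyltransferase 1, the step that commits long-chain acyl groups to the mitochondrion and that malonyl-CoA inhibits. It lay at 447, 901 and 476 CPM in Des+/+ non-swim and at 87.4, 226 and 47.0 CPM in Des-/- non-swim. After swimming the values were 338, 249.3 and 304 CPM in Des+/+ and 282, 249.5 and 141 CPM in Des-/-, so that the genotypes overlapped. Its log2 change with genotype was -2.34 without swimming (SE 0.52, adjusted p = 0.00668) and -0.40 after swimming (SE 0.49, adjusted p = 0.608). The annotation holds a read-through gene, Gm44502, that shares 2744 exon bases with Cpt1b on the same strand and is not listed in the count tables used here. How reads in the shared bases were counted is not known. They could count as Cpt1b or have been set aside as ambiguous.

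Cpt1a, the form that dominates in liver and in many non-muscle cells, catalyses the same step. Its level was 128, 109.6 and 88.2 CPM in Des+/+ non-swim, 112, 104 and 146 CPM in Des+/+ swim, 89.7, 90.0 and 132 CPM in Des-/- non-swim and 121, 115 and 123 CPM in Des-/- swim. All 4 groups overlapped. The log2 change with genotype was -0.06 without swimming (SE 0.19, adjusted p = 0.827) and -0.01 after it (SE 0.19, adjusted p = 0.970), and upper-quartile scaling turned both signs, to 0.03 and 0.08. Relative to cardiomyocyte markers the values were 2.66 (adjusted p = 9.53e-05) and 0.82 (adjusted p = 0.321). These lay near the medians of all genes on that scale, 2.61 and 0.83, where 91.8% and 1.76% of all genes were called.

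Cpt2, on the inner mitochondrial membrane, turns the imported acylcarnitine back into acyl-CoA. It stood at 181, 338 and 176 CPM in Des+/+ non-swim and at 42.5, 78.0 and 30.4 CPM in Des-/- non-swim. After swimming it stood at 110.3, 91.2 and 115 CPM in Des+/+ and at 69.4, 58.0 and 47.7 CPM in Des-/-. Both pairs of groups were apart, with a narrower gap after swimming. The log2 change was -2.21 (SE 0.35, adjusted p = 0.00143) without swimming and -0.85 (SE 0.34, adjusted p = 0.121) after it.

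Acadvl, Acadl and Acadm encode the very-long-, long- and medium-chain acyl-CoA dehydrogenases, which carry out the opening oxidation of each round. Acadl was measured at 1114, 1662 and 1152 CPM in Des+/+ non-swim, 192, 391 and 148 CPM in Des-/- non-swim, 864, 614 and 903 CPM in Des+/+ swim and 323, 295 and 196 CPM in Des-/- swim. Acadm was measured at 964, 1397 and 1038 CPM, 175, 339.7 and 101 CPM, 787, 509 and 776.5 CPM, and 305, 232 and 145 CPM in the same order of groups. These 2 genes were the ones called lower under both conditions, and no Des-/- library reached the lowest Des+/+ library of its condition. For Acadl the log2 change was -2.43 (SE 0.36, adjusted p = 0.00119) without swimming and -1.55 (SE 0.35, adjusted p = 0.0236) after it. For Acadm it was -2.47 (SE 0.42, adjusted p = 0.00196) and -1.60 (SE 0.41, adjusted p = 0.0339).

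Acadvl, the dehydrogenase for the longest chains and bound to the inner membrane, was measured at 879, 1564 and 974 CPM in Des+/+ non-swim and 238, 365 and 146 CPM in Des-/- non-swim. After swimming the levels were 758, 504 and 729 CPM in Des+/+ and 469, 395 and 280.2 CPM in Des-/-. The groups were apart in both conditions, but the highest Des-/- swim library came close to the lowest Des+/+ swim library. Its log2 change was -2.19 (SE 0.36, adjusted p = 0.0015) without swimming and -0.80 (SE 0.34, adjusted p = 0.144) after it. Acadvl shares 1151 exon bases with Dvl2 on the other strand, and the counting was set to use strand.

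Hadha carries the hydratase and hydroxyacyl-CoA dehydrogenase activities of the trifunctional protein and Hadhb its thiolase. Hadha was at 1124, 2041 and 1219 CPM in Des+/+ non-swim and at 264, 501 and 209 CPM in Des-/- non-swim, and after swimming at 872, 620.2 and 831 CPM in Des+/+ and 438, 392 and 257 CPM in Des-/-. Hadhb, transcribed from the other side of the 85 bases shown above, was at 889, 1324 and 944 CPM, 170.4, 343 and 110.3 CPM, 635, 412 and 596 CPM, and 293, 215 and 136 CPM in the same order. Both genes were lower in every Des-/- library than in any Des+/+ library of the same condition. The log2 changes without swimming were -2.17 for Hadha (SE 0.36, adjusted p = 0.00169) and -2.34 for Hadhb (SE 0.41, adjusted p = 0.00222). After swimming they were -1.10 (SE 0.35, adjusted p = 0.0664) and -1.35 (SE 0.40, adjusted p = 0.0534), and neither passed.

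Etfdh passes the electrons that electron transfer flavoprotein takes from the acyl-CoA dehydrogenases to ubiquinone. It was at 538, 917 and 515 CPM in Des+/+ non-swim and at 93.3, 206 and 68.7 CPM in Des-/- non-swim. After swimming it was at 314, 284 and 379 CPM in Des+/+ and at 196, 161 and 103 CPM in Des-/-. The genotypes did not overlap in either condition. The log2 change was -2.42 (SE 0.41, adjusted p = 0.00184) without swimming and -1.09 (SE 0.39, adjusted p = 0.0931) after it.

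**Figure D2:**
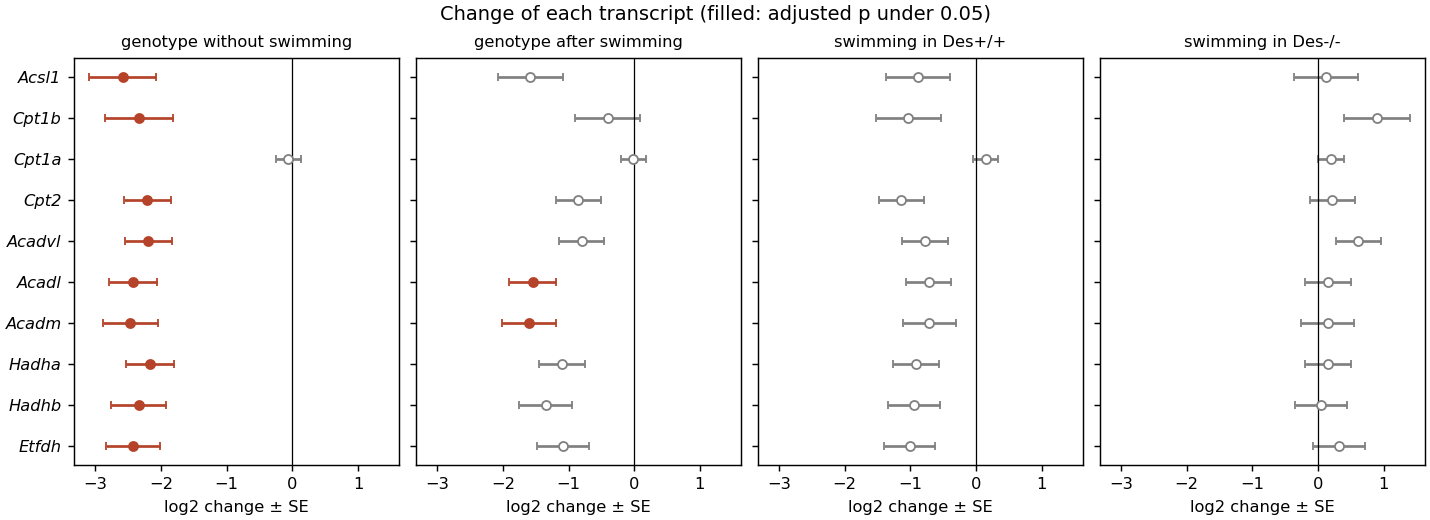
Log2 change of each transcript in 4 comparisons, with points for the estimates of the 4-group fit, bars for 1 standard error either side, and filled points for an adjusted p under 0.05. The axis gives log2 change relative to all genes by TMM scaling. The 9 filled points of the genotype comparison without swimming lie between -2.58 and -2.17. Relative to cardiomyocyte markers none of these 9 was called, and Cpt2, Acadvl and Hadha lay above 0.

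Swimming was compared within each genotype to ask how exercise went with the same transcripts. In Des+/+ cells 9 of the 10 were lower after swimming in all 3 libraries than in any non-swim library, as were 18.7% of all genes, and Cpt1a overlapped. None of the 10 was called by edgeR, and 0.0912% of all genes were. At an unadjusted p under 0.05 there were 5, against 20.4% of all genes. DESeq2 called 1, Cpt2, where it called 6.17% of all genes. The filter of the study passed 5, against 10.2% of all genes. The log2 changes ranged from -1.14 to 0.15 with a median of -0.90, against -0.08 for all genes. Cpt2 had the smallest p (log2 change -1.14, SE 0.34, adjusted p = 0.122, and 0.0273 with DESeq2), followed by Hadha (-0.92, SE 0.35, adjusted p = 0.182). On the scale of cardiomyocyte markers 6 of the 10 were lower and the median was -0.06.

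In Des-/- cells all 10 estimates were above 0 after swimming, from 0.05 to 0.90 with a median of 0.18, and the swim and non-swim libraries overlapped for every gene, where 10.4% of all genes were higher and 9% lower with no overlap. None was called by edgeR or DESeq2, and none had an unadjusted p under 0.05. Of all genes edgeR called 0.0228% and DESeq2 2.58%, and 16.6% had an unadjusted p under 0.05. The filter of the study passed none of the 10 and 8.47% of all genes. Cpt1b had the smallest p (0.90, SE 0.50, adjusted p = 0.375), followed by Acadvl (0.61, SE 0.34, adjusted p = 0.382). The common sign rested on single libraries: without replicate 3 of Des-/- non-swim 6 of the 10 estimates were negative, without replicate 1 of Des-/- swim 4 were, and without replicate 1 of Des-/- non-swim 2 were. Relative to cardiomyocyte markers 9 of the 10 were negative, Acadvl among them at -0.12.

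The difference between the swimming responses of the 2 genotypes was tested as an interaction. No gene of the 10 was called by edgeR or DESeq2. Of all genes edgeR called none (0%) and DESeq2 2.49%. All 10 estimates were positive, from 0.05 for Cpt1a to 1.94 for Cpt1b (SE 0.70, adjusted p = 0.237), with a median of 1.04 against 0.03 for all genes. At an unadjusted p under 0.05 there were 4 of the 10, against 16.2% of all genes, and the same number passed the filter of the study, against 12.9%. The smallest p belonged to Acadvl (1.39, SE 0.49, adjusted p = 0.225) and to Cpt2 (1.35, SE 0.48, adjusted p = 0.228). Scaled to cardiomyocyte markers 9 of the 10 estimates were negative, these 2 at -0.17 and -0.21, with a median of -0.45, and Cpt1b alone was positive at 0.54.

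The content of cardiomyocyte RNA differed between the groups as well. The summed level of 12 cardiomyocyte markers (among them Myh6, Tnnt2 and Actn2, all detected in every library) was 60032 to 95268 CPM in Des+/+ non-swim, 31283 to 53220 in Des+/+ swim, 6691 to 28460 in Des-/- non-swim and 17212 to 28603 in Des-/- swim. Of these 12 markers 11 were called lower in Des-/- without swimming and 1 after it, where 18% and 5.6% of all genes were called lower. In such bulk libraries fewer cardiomyocytes and less RNA per cardiomyocyte cannot be told apart. Summed fibroblast markers (10 genes, Col1a1 and Dcn among them) ran from 3319 to 3783 CPM in Des+/+ non-swim, 2316 to 3305 in Des+/+ swim, 8189 to 36916 in Des-/- non-swim and 3951 to 12563 in Des-/- swim. Macrophage markers (10 genes) ran from 230.2 to 352, 273 to 345, 439 to 4511 and 245 to 1483 CPM in that order.

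A list of 12 genes that answer to cell isolation, such as Fos and Egr1, summed to 1600 to 2552 CPM in Des+/+ non-swim, 2046 to 2301 in Des+/+ swim, 4691 to 9252 in Des-/- non-swim and 3870 to 6846 in Des-/- swim. Of these 12 genes 8 were called higher in Des-/- without swimming and 5 after it, where 31.7% and 10.6% of all genes were called in either direction. After swimming 2 of the 12 went the other way. Hspa1a had a mean of 120 CPM in Des+/+ swim and 39.4 in Des-/- swim, and Hspa1b 164 and 43.0. Endothelial markers overlapped between the genotypes in both conditions (5433 to 8074 against 6346 to 7806 CPM without swimming). Mural cell markers (8 genes) ran from 2909 to 3742 CPM in Des-/- non-swim and from 4062 to 5642 in Des+/+ non-swim. Of these 8 genes 1 was called lower in Des-/- without swimming, against 18% of all genes. Adipocyte markers, with Lep at 0 to 4 counts and Ucp1 at 0 to 2, summed to at most 61.4 CPM in any library. The share of uniquely aligned reads that fell in no gene also moved with the groups, at 34.0 to 39.3% in Des+/+ non-swim, 45.9 to 50.4% in Des+/+ swim, 34.2 to 52.3% in Des-/- non-swim and 57.2 to 64.5% in Des-/- swim. The groups without swimming overlapped, with replicate 3 of Des-/- non-swim at 34.2%. The part of any of these measures in the change of the oxidation transcripts was not tested.

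The 10 oxidation genes took 0.760% ± 0.168 (SD, n = 3) of the assigned reads in Des+/+ non-swim, 0.458% ± 0.0757 in Des+/+ swim, 0.192% ± 0.103 in Des-/- non-swim and 0.231% ± 0.0659 in Des-/- swim. Set against the reads of the 12 cardiomyocyte markers in the same library, they came to 11.5% ± 0.53 (SD, n = 3), 11.4% ± 1.40, 11.9% ± 3.31 and 8.86% ± 0.97 in the same order. The genotype difference of this ratio was 0.02 on the log2 scale without swimming and -0.36 after it, given as a description. With Myh6 and Ttn left out of the markers it was -0.18 and -0.48. Leaving out replicate 3 of Des-/- non-swim gave -0.20 without swimming, and over the left-out libraries, a check added after the data were seen, it ran from -0.20 to 0.14 without and from -0.46 to -0.28 after swimming. Replicate 3 of Des-/- non-swim stood apart with 15.7%, and it had the lowest cardiomyocyte and the highest macrophage and fibroblast levels. The highest ratio in Des-/- swim, 9.87%, lay just above the lowest in Des+/+ swim, 9.77%.

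**Figure D3:**
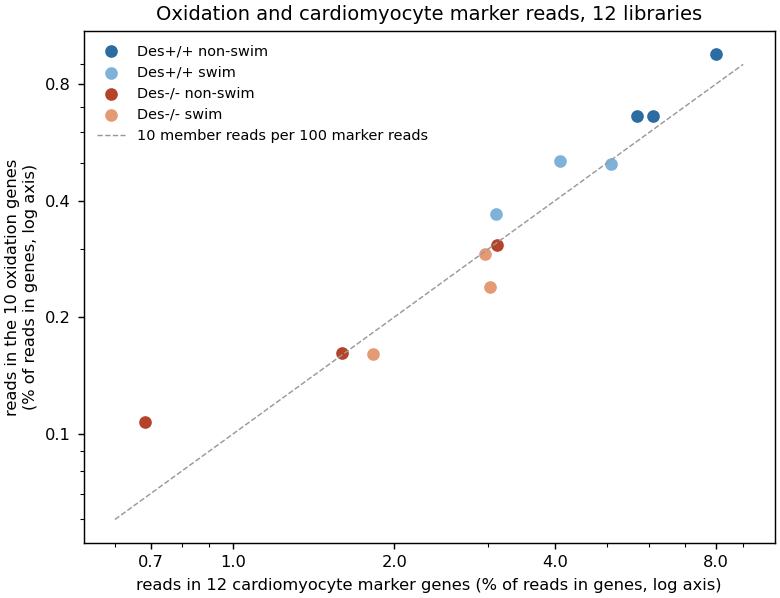
Reads in the 10 oxidation genes against reads in 12 cardiomyocyte marker genes, both as a percent of reads assigned to genes in the library, on log axes. Each point is a library, coloured by group, and the dashed line marks 10 oxidation reads per 100 marker reads. The Des-/- non-swim library at the far left has 0.683% marker reads and 0.107% oxidation reads, and the Des+/+ non-swim library at the far right 8.01% and 0.954%.

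With the libraries scaled to those 12 markers, the median change of all tested genes with genotype moved from 0.04 to 2.61 without swimming and from 0.02 to 0.83 after it. The oxidation genes had medians of -0.10 and -0.33 on that scale. Only Cpt1a was called without swimming, as higher, where 91.8% of all genes were called, and none was called after swimming. The other 9 ranged without swimming on that scale from -0.44 for Acsl1 (adjusted p = 0.425) to 0.20 for Hadha (adjusted p = 0.718).

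The highest or lowest replicate of a group was often shared by the enzymes. For all 9 genes other than Cpt1a, replicate 2 was the highest of Des+/+ non-swim and of Des-/- non-swim, replicate 2 was the lowest of Des+/+ swim, and replicate 3 was the lowest of both Des-/- groups. Over the 12 libraries the Pearson correlation of a gene's log2 CPM with the mean of the other members was 0.936 for Cpt1b, 0.984 to 0.997 for the other 8 and -0.06 for Cpt1a. The mean of the 10 correlated with the mean of the cardiomyocyte markers at 0.973. Outside the 10, the genes with the pattern most like their mean, of 12148 ranked over the 12 libraries, were Slc25a11 (0.997), Got2 (0.996), Slc25a12 (0.996), Dlst (0.996) and Smyd1 (0.995). All these values describe points that share group means and cell content.

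Levels of different genes were compared as CPM per kilobase of annotated exon. This length joins the exons of all annotated transcripts of a gene, from 2005 bases over 2 transcripts in Acadl to 10483 over 11 in Acsl1. The order below therefore depends on the annotation as well as on the reads. By CPM alone Hadha was the highest in Des+/+ non-swim, at a mean of 1462. In Des+/+ non-swim the order ran from Acadl (653 ± 153, SD, n = 3) over Acadvl (424 ± 138), Acadm (289.6 ± 59.2), Cpt1b (180.4 ± 75.4), Hadha (167 ± 57.8), Hadhb (159.6 ± 35.9), Cpt2 (96.9 ± 38.6), Etfdh (87.5 ± 30.1) and Acsl1 (78.1 ± 23.1) to Cpt1a (14.2 ± 2.63). The ranges of mean ± SD overlapped for each neighbouring pair in this order except Acsl1 and Cpt1a. Acadl stayed in the lead in Des+/+ swim and Des-/- non-swim, while in Des-/- swim Acadvl (142 ± 35.4) and Acadl (135 ± 33.5) did not differ beyond their SD. Cpt1a was the lowest in both Des+/+ groups. In Des-/- non-swim it stood beside Acsl1 (13.6 ± 3.20 against 13.1 ± 10.03), and these 2 were also the lowest in Des-/- swim.

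Because all enzymes of a library share its scaling, 4 log2 ratios of read counts within a library were compared between genotypes and between swimming conditions. These 8 tests were two-sided exact permutation tests with 400 arrangements and a smallest possible p of 0.005, and their p-values were adjusted together by Benjamini-Hochberg. No ratio came under an adjusted p of 0.05, and 4 tests stood at 0.05 exactly.

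Acadvl relative to Acadm had the smallest p. The ratio of its reads was 0.912, 1.12 and 0.938 in Des+/+ non-swim, 0.964, 0.991 and 0.939 in Des+/+ swim, 1.36, 1.07 and 1.45 in Des-/- non-swim and 1.54, 1.70 and 1.93 in Des-/- swim. Every Des-/- swim library was above all other libraries. The genotype difference was 0.61 on the log2 scale (exact permutation p = 0.01, adjusted p = 0.05), 0.38 without and 0.83 after swimming. The swimming difference was 0.19 (exact permutation p = 0.125, adjusted p = 0.2), -0.03 in Des+/+ and 0.42 in Des-/-.

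Cpt1b reads relative to those of Cpt1a ranged from 3.48 to 8.22 in Des+/+ non-swim, 2.09 to 3.02 in Des+/+ swim, 0.355 to 2.51 in Des-/- non-swim and 1.15 to 2.34 in Des-/- swim. The ratio was thus highest in the Des+/+ non-swim libraries, which overlapped no other group, and replicate 3 of Des-/- non-swim had the lowest ratio. The log2 difference with genotype was -1.47 (exact permutation p = 0.02, adjusted p = 0.05), with -2.49 without and -0.46 after swimming. Swimming gave -0.10 in all (exact permutation p = 0.855, adjusted p = 0.855), composed of -1.12 in Des+/+ and 0.92 in Des-/-.

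Cpt1b relative to Cpt2, its partner on the inner membrane, ranged from 2.47 to 2.71 and from 2.64 to 3.06 in the Des+/+ non-swim and swim groups and from 1.55 to 2.90 and 2.95 to 4.31 in the Des-/- groups. The swimming difference was 0.47 on the log2 scale (exact permutation p = 0.02, adjusted p = 0.05), composed of 0.10 in Des+/+ and 0.83 in Des-/-. The genotype difference was 0.05 (exact permutation p = 0.82, adjusted p = 0.855), composed of -0.32 without and 0.41 after swimming. Hadha relative to Hadhb moved within a narrow band, 1.27 to 1.90 over all 12 libraries. Its genotype difference was 0.27 (exact permutation p = 0.025, adjusted p = 0.05) and its swimming difference 0.08 (exact permutation p = 0.385, adjusted p = 0.513).

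**Figure D4:**
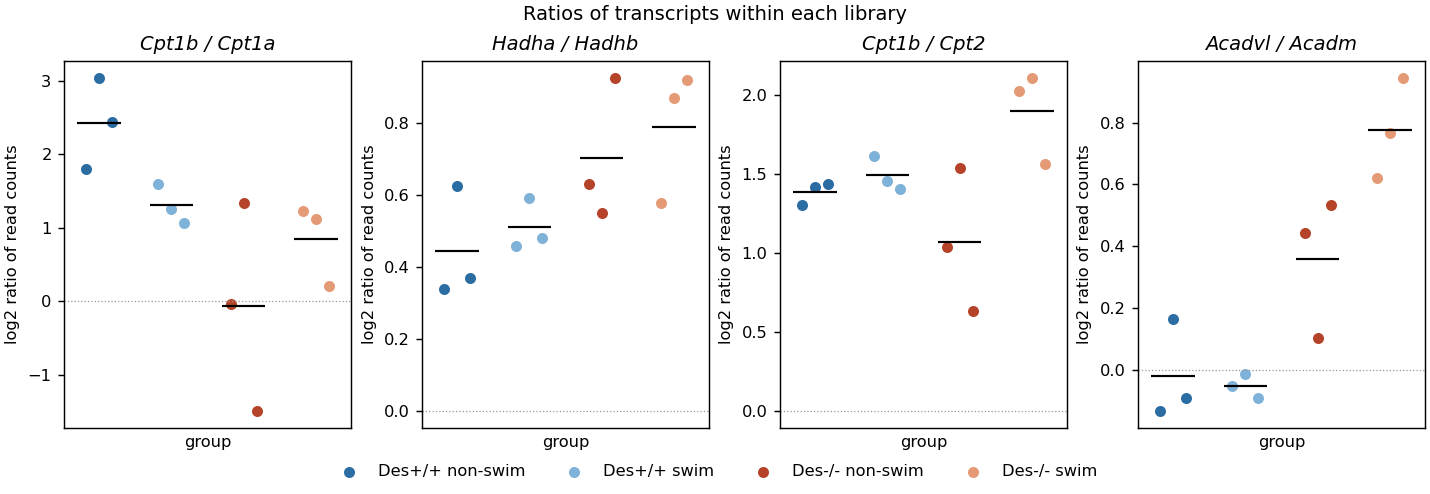
Log2 ratio of the read counts of 2 enzymes within each library, in 4 panels with their own vertical axes. Points are the 3 libraries of each of the 4 groups, bars are group means, and the dotted line marks equal counts. In the Acadvl to Acadm panel the Des-/- swim libraries lie between 0.62 and 0.95 and the Des+/+ libraries between -0.13 and 0.16.

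Other genes of fatty acid and energy metabolism were read from lists that are not independent of earlier results of these data. Of 23 further genes of mitochondrial beta-oxidation and neighbouring steps 22 were called lower in Des-/- without swimming and none higher, against 18% of all genes called lower. The median log2 change was -1.91, and Acad10 (-0.08) was the exception. Acacb, Mlycd, Pcca, Pccb, Mmut, Slc25a20 and Crat are among the genes of this list that act outside the rounds of beta-oxidation themselves. The largest falls were in Eci1, an enoyl-CoA isomerase (-2.33, SE 0.40, adjusted p = 0.00209), and Decr1, the dienoyl-CoA reductase (-2.32, SE 0.31, adjusted p = 0.000903), both needed for unsaturated fatty acids. After swimming 6 of the 23 were called lower, against 5.6% of all genes, and the median was -0.72. All 18 citric acid cycle genes were called lower without swimming (median -1.90) and 10 after it (median -1.16). Examples were Sucla2, a succinyl-CoA ligase subunit (-2.59, adjusted p = 0.00348), and Idh3a, of isocitrate dehydrogenase (-2.32, adjusted p = 0.00107). Relative to cardiomyocyte markers Eci1 (0.01) and Decr1 (0.14) changed sign, while Sucla2 was at -0.35 and Idh3a at -0.01.

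Of 13 genes of fatty acid uptake and activation 7 were called lower without swimming and none higher, where 18% of all genes were called lower. Fabp3, the cytosolic fatty acid binding protein of heart, had a mean of 1629.8 ± 517 CPM in Des+/+ non-swim and 273 ± 143 CPM in Des-/- non-swim (-2.58, adjusted p = 0.00158), and Acsl6, another acyl-CoA synthetase, fell by 2.91 on the log2 scale (adjusted p = 0.0119) from 13.2 ± 6.02 CPM. In the triglyceride store 7 of 12 were called lower, led by Dgat2, which makes triglyceride (-2.96, adjusted p = 0.0116), and Plin5, a lipid droplet coat protein (-2.71, adjusted p = 0.00417). Of 12 peroxisomal genes 6 were called lower, among them Pex11a (-2.18, adjusted p = 0.00118), and all 12 estimates were below 0. The medians of these lists were -0.49, -1.35 and -0.51. After swimming 1 of 13, 0 of 12 and 1 of 12 genes of these lists were called lower, against 5.6% of all genes, namely Acss1 (-1.45) and Scp2 (-0.64), both chosen here after their values were seen. Scaled to cardiomyocyte markers, Fabp3 was at -0.31, Acsl6 at -0.83, Dgat2 at -0.86 and Plin5 at -0.55, and Pex11a (0.24) changed sign.

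Among 18 transcription regulators of the pathway 9 were called lower without swimming and none higher, against 18% of all genes called lower, with a median of -0.79 against 0.04 for all genes. Rxrg, a partner receptor of the PPARs, fell by 2.69 on the log2 scale (adjusted p = 0.00129) and Ppargc1a, which encodes PGC-1alpha, by 2.26 (adjusted p = 0.00913). On the scale of cardiomyocyte markers these 2 genes were at -0.49 and -0.23. After swimming 3 of the 18 were called lower, Tfam (-0.59), Lpin1 (-1.15) and Klf15 (-1.51), named after their values were seen, where 5.6% of all genes were. Pparg, named likewise, was called higher with swimming in Des+/+ (1.21, adjusted p = 0.00871) and in Des-/- (0.98, adjusted p = 0.0386). Among the settings that left no gene called at all, the former call was lost without replicate 3 of Des+/+ non-swim or of Des+/+ swim, and the latter without replicate 1 or 2 of Des-/- non-swim, with the 6 libraries alone and with scaling to cardiomyocyte markers. Whether the Pparg calls held in the remaining settings is not given here.

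Of 7 PPAR target genes outside oxidation 3 were called lower without swimming and none higher, against 18% of all genes called lower. In this comparison 3 of the 7 estimates were above 0, and the median was -0.62. Ucp3, a mitochondrial uncoupling protein, had -3.87 (adjusted p = 0.00226) and Pdk4, the kinase that shuts pyruvate dehydrogenase, -3.74 (adjusted p = 0.000801). Both kept a negative sign relative to cardiomyocyte markers, at -1.66 and -1.41. After swimming Ucp3 was at 0.19 (adjusted p = 0.847) and Pdk4 at -1.16 (adjusted p = 0.0785). Of the 7 genes 1 was then called higher and none lower, where 10.6% of all genes were called in either direction. The estimates of 5 of the 7 were above 0, with a median of 0.19. In ketone body use 4 of 5 genes were called lower without swimming, Bdh1 (-2.55, adjusted p = 0.00244) and Acat1 (-1.9997, adjusted p = 0.00125) the most, and 2 after it, Acat1 and Slc16a1 (-1.12 and -1.19), where 5.6% of all genes were called lower. Relative to the markers of cardiomyocytes Bdh1 lay at -0.33 and Acat1 at 0.39.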

How the data were processed

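Per the labels and the methods of the study, single-end reads were aligned by the authors to GRCm38 with HISAT2 2.2.1, sorted with SAMtools 1.13 and counted per gene with HTSeq in reverse-stranded mode (versions from the submitters' processing notes). The deposited values are raw counts, not normalized. The labels name a kit that does not mark strand (TruSeq RNA v2) and the methods a directional one. Without strand, reads of overlapping genes on opposite strands, such as Acadvl and Dvl2, cannot be told apart. The special rows (reads in no gene, ambiguous, not unique, not aligned), 52.4% to 78.8% of each file's total, were left out.

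Groups came from the sample titles. One edgeR 4.0.16 quasi-likelihood fit (robust, TMM scaling, filterByExpr, R 4.3.3, limma 3.58.1) over the 4 groups gave 5 contrasts, with Benjamini-Hochberg adjustment over 13158 genes, a threshold of 0.05 and 8 residual degrees of freedom. SE was the absolute log2 change over the square root of F. CPM were TMM-scaled. Tested on simulated counts for the genotype comparison without swimming over 13158 genes, it called 80 of 100 genes changed by 2 log2 units, 39 of 100 changed by 1 and 5 of 12958 unchanged ones.

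The 10 members, all lists and the tests were chosen with earlier results of these data known. Named were all 10 members for genotype, the 2 with the smallest p for swimming and the interaction, and from each other list the called gene with the largest rise and the 2 with the largest fall for genotype without swimming, apart from items that are not reported here. The 5 most similar genes were taken by Pearson correlation of log2 CPM (prior count 2) among tested genes averaging 20 counts or more.

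Alternatives were DESeq2 1.42.0, upper-quartile, RLE and cardiomyocyte-marker scaling, no filter on low counts, the 6 libraries of a comparison alone, the replicate number as a block, the filter of the study (unadjusted p at most 0.05, absolute log2 change at least 0.6, mean count at least 20), each of the 12 libraries left out, and, added after seeing the data, edgeR without the robust option and the ratio of members to cardiomyocyte markers with each library left out. The labels share replicate numbers across groups. Deviations of same-numbered libraries correlated above 0.1 in all 3 pairs only for swimming in Des-/- (0.36, 0.32 and 0.60), where the block called 0 of the 10, as the fit without it did.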

Additional observations from a re-analysis of the deposited data

How the results depend on the processing

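Without swimming the 9 calls of the genotype comparison stayed at 9 with DESeq2, upper-quartile and RLE scaling, no filter, the 6 libraries alone, the filter of the study, the replicate block, edgeR without the robust option and each library left out. In these settings 19.6% to 36.4% of all genes were called. Scaling to cardiomyocyte markers left 1 call (Cpt1a, higher), with 12073 genes called in all against 4174, and gave 0.15 for Cpt2, 0.16 for Acadvl, 0.20 for Hadha and 2.66 for Cpt1a; it gave 0 calls after swimming, with 0.82 for Cpt1a and 0.35 for Cpt1b, -0.12 for Acadvl with swimming in Des-/-, and -0.17 (Acadvl) and -0.21 (Cpt2) for the interaction. By its construction a change on that scale is relative to the 12 markers. Upper-quartile scaling moved Cpt1a to 0.034 and 0.083 in the genotype comparisons and raised the share of higher calls, to 2468 of 4499 (1811 of 4174 as reported) without and 946 of 1396 (657 of 1394) after swimming. After swimming the 2 calls became 8 with the filter of the study (17.5% of all genes), 6 with DESeq2 (17.7%) and 5 with the replicate block (9.86%). They became 7 with the 6 libraries alone (7.88%) and 0 to 6 with a library left out (0.562% to 16.3%). The cause was not tested. With swimming in Des+/+ the filter of the study passed 5, DESeq2 called 1 and the replicate block 0, and for the interaction they gave 4, 0 and 0. Of all genes these settings gave 10.2%, 6.17% and 0.137% with swimming in Des+/+, and 12.9%, 2.49% and 0% for the interaction. Leaving out a library moved Cpt1a between -0.27 and 0.073 without and between -0.11 and 0.15 after swimming, and the number of genes called without swimming fell to 2579 without replicate 2 of Des+/+ non-swim.

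Over the left-out libraries the log2 ratio of Cpt1b to Cpt1a ran from -1.82 to -1.12 for genotype (adjusted p 0.0267 to 0.13) and from -0.46 to 0.25 for swimming, Cpt1b to Cpt2 from -0.071 to 0.16 for genotype and from 0.36 to 0.58 for swimming (0.04 to 0.17), Hadha to Hadhb from 0.21 to 0.32 for genotype (0.0267 to 0.12), and Acadvl to Acadm from 0.56 to 0.67 for genotype (0.0267 to 0.11) and from 0.13 to 0.24 for swimming (0.04 to 0.4). With the replicate number as a block (64 arrangements, smallest possible permutation p 0.03125) the smallest adjusted p of the 8 was 0.125. A single ratio at that floor could not have come under 0.05 after adjustment, so this setting could hardly pass any. Of the same-numbered pairs, those of the other 3 comparisons correlated between -0.41 and 0.13, so the numbers did not pair them. With 3 libraries a group, changes near 1 log2 unit were often missed in the simulation. Far fewer genes were changed there than the 4174 called in the data for genotype without swimming. The adjustment was therefore stricter in the simulation, and its rates are not those of the reported tests. Counting error is small beside this, since each member had at least 265 reads.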
